A study of Mus musculus with 4 samples.

Results

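Immortalized mouse Schwann cells of the IMS32 line were kept for 1 h in DMEM with 5% fetal bovine serum and 1 mM pyruvate. One culture had 5 mM glucose, the [Glc 5 mM/Pyr (+)] group, and another 15 mM glucose, the [Glc 15 mM/Pyr (+)] group. The comparison of these 2 groups asks what high glucose does to gene expression while pyruvate is supplied. They are 2 of the 4 arrays of the series, all on 1 slide. The other two, which share no array with them, hold the same cells at the same time without pyruvate at 5 mM glucose, [Glc 5 mM/Pyr (−)], or at 15 mM, named [Glc 15 mM/Pyr (−)]. Each group is 1 culture on 1 one-colour array, so no difference below has a replicate check and none was tested. Genes were included where a probe was well above background on both pyruvate-supplied arrays. This held for 17093 of the 23087 gene symbols on the array, and 11434 of them had a probe with a signal over 200 on either array and are called bright. The other 5659 genes are called dim.

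Signals are spot intensities. Where 4 signals of a gene are given, their order is 5 and then 15 mM glucose with pyruvate, followed by 5 and then 15 mM without. With pyruvate, the 75th percentile of the array was 1788 at 5 mM and 1597 at 15 mM glucose, so a gene at the same relative level has a lower signal on the second array. Levels are therefore log2 signals minus the log2 of this percentile, and a difference is the level at 15 mM minus the level at 5 mM glucose. Of 39429 probes, 30344 stood well above background at 5 mM and 28470 at 15 mM glucose. A log2 difference of 0.32 is used below as a smaller limit beside 1.5-fold. Of 16 Schwann cell markers, 11 had a signal over 200 on both arrays, among them Sox10, the transcription factor of the lineage, at 5413 and 4837, S100b at 3519 and 3552 and Ngfr, the low-affinity neurotrophin receptor, at 17404 and 14827. The neuregulin receptor Erbb3 was at 22.2 and 16.4. Fibroblast markers were also present, with 6 of 9 over 200 on both arrays, and none of 6 keratinocyte or epithelial markers was. Of 8 macrophage markers 5 were over 200 on both arrays. These were Cd68 (1200 at 5 mM glucose), Csf1r (1063), Aif1 (387) and Cd14 (269) on probes without a repeat, and Itgam (13155) on a probe with the simple repeat described next. The pan-leukocyte marker Ptprc was at 26.9. Also over 200 on both arrays were 2 of 7 endothelial markers, among them Kdr (5496), 2 of 7 lymphocyte markers, among them Cd4 (2268), 1 of 6 melanocyte markers and 2 of 8 neuronal markers, Tubb3 (322) and, on a repeat probe, Snap25 (9340). The part of other cell types in the results was not tested.

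Glucose enters Schwann cells through facilitative transporters and is broken down by glycolysis to pyruvate, which mitochondria oxidize. Pyruvate in the medium is taken up by monocarboxylate transporters and joins the same pool. Within an hour of a change in their surroundings many cell types change immediate-early genes, such as Fos and Egr1, whose transcription needs no new protein and whose mRNAs are short-lived, whereas abundant metabolic mRNAs are long-lived.

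Some of the probes with large differences at usable signal shared letters, and their sequences are shown for this reason. Each probe is 60 bases long, and the 30 bases that hold the shared letters are given 5′ to 3′ as the array files list them, with the shared letters in capitals. Positions of the whole probes are in mm9, as in the files, and the part of the transcript they lie in was not analysed here. The first 5 belong to genes that were higher at 15 mM glucose and hold an unbroken repeat of adenine and guanine.
Cd300lf: tttaaggaggaAGAGAGAGAGAGAGAGAGt
Syn3: aaagagagagaaaagGAGAGAGAGAGAcag
Ddx25: aatattgaAGAGAGAGAGAGAagagaggcc
Gbp6: tgtgtaaagGAGAGAGAGAGAtcttggtgc
Lzts3: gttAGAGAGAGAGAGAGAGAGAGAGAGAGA
The next 3 belong to genes that were lower, of which Fam107a (−0.58) and Tacr2 (−0.53) were just short of 1.5-fold, and hold an unbroken repeat of adenine and cytosine.
Gm12576: gactcattCACACACACACACACACACACA
Fam107a: tcccacCACACACACACACACACAgaattc
Tacr2: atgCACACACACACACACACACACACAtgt
The last 2 belong to the genes with the largest falls among those with a signal over 500, and hold no repeat but 12 bases in common.
Pde5a: GCCCTCCACCAAgagaaatgttttacttga
Dirc2: gaagccttaGCCCTCCACCAAtccaagctc

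The adenine-guanine probes lie at chr11:114977796-114977855 (Cd300lf), chr10:85586568-85586627 (Syn3), chr9:35349535-35349594 (Ddx25), chr5:105644259-105644318 (Gbp6) and chr2:130459323-130459382 (Lzts3), and the adenine-cytosine probes at chr11:83633718-83633777 (Gm12576), chr14:9130274-9130333 (Fam107a) and chr10:61728517-61728576 (Tacr2).

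The Pde5a probe lies at chr3:122558949-122559008 and the Dirc2 probe at chr16:35695203-35695262. The 12 shared bases, GCCCTCCACCAA, are in these 2 of all 39429 probes (0.00507%) and, read on the other strand, in 1 probe. They are the longest run shared by any of the 66 pairs of repeat-free probes of the lower genes, and the next longest run was 10 bases. The match is a description of the letters and says nothing of which RNA gave the signal.

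With pyruvate present, nearly all bright genes had close to the same level at both glucose concentrations. The median difference was 0.01 and the SD over genes 0.13 on the log2 scale, and 11141 of 11434 bright genes (97.4%) stayed inside the smaller limit. Past 1.5-fold, 9 bright genes were higher (0.0787%) and 13 were lower (0.114%) at 15 mM glucose. Past the smaller limit, 73 were higher (0.638%) and 220 lower (1.92%). In the pyruvate-free pair the SD over the same genes was 0.23, and 76 of them were higher and 171 lower past 1.5-fold. The median spot-to-spot SD within an array was 0.0935 at 5 mM and 0.0868 at 15 mM glucose, over the 399 probes printed 10 times.

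**Figure D1:**
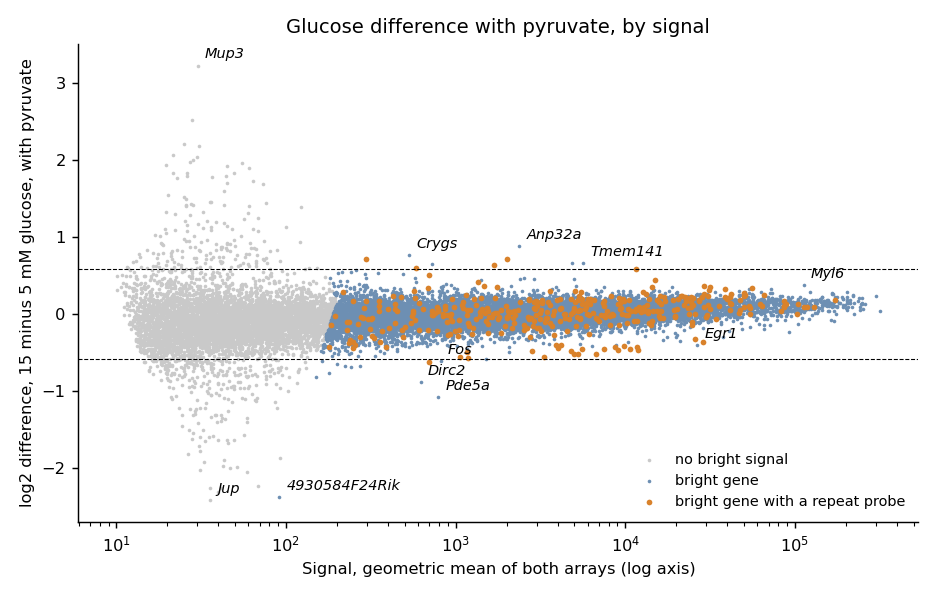
Difference between 15 and 5 mM glucose with pyruvate (vertical axis, log2) against the geometric mean signal of both arrays (horizontal axis, log scale) for the 17093 measured genes, 1 point a gene, with dashed lines at 1.5-fold. Bright genes form a narrow band with 22 genes past the lines, and most points far from 0 are dim genes.

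The 9 higher genes fell into 2 kinds. The 4 genes Syn3, Cd300lf, Ddx25 and Gbp6 had a probe with the adenine-guanine repeat. The other 5 were Anp32a, Crygs, Traf2, Tmem141 and Ppie. Tmem141, a small membrane protein, had signals of 4762, 6687, 4819 and 4936. The [Glc 15 mM/Pyr (+)] array thus stood above the other three, with a difference of 0.65 (1.57-fold) with pyruvate and 0.13 without. Ppie, a cyclophilin of the spliceosome, had the same pattern, with signals of 615, 858, 659 and 619 and a difference of 0.64 with pyruvate against 0.00 without. Crygs, a lens crystallin, went from 433 to 657 with pyruvate (0.76), and from 555 to 734 without (0.50), which is short of 1.5-fold.

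Traf2 and Anp32a were each measured by 2 bright probes that gave different sizes. For Traf2, an adapter of tumor necrosis factor receptors, the brighter probe went from 9071 to 9921 (0.29) and the dimmer one from 182 to 330 (1.02). For Anp32a, an acidic nuclear phosphoprotein, one probe at chr9:62225436-62225495 went from 2379 to 7545 (1.83) and the other from 471 to 400 (−0.07), so the mean of 0.88 describes neither. The first of these probes also read higher at 15 mM glucose without pyruvate, 4783 against 2434.

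The 13 lower genes were led by 4930584F24Rik, a long non-coding RNA, with signals of 220 at 5 mM and 37.9 at 15 mM glucose. The pyruvate-free arrays read 37.2 and 46.0, so the array that stood apart was that of [Glc 5 mM/Pyr (+)]. This probe was printed once on each array. Pde5a, the phosphodiesterase that breaks down cyclic GMP, fell from 1219 to 514 (difference −1.08, 2.12-fold), with 1027 and 875 in the pyruvate-free pair. Dirc2, a lysosomal membrane transporter, went from 895 to 432 (−0.89), with 671 and 577 in the pyruvate-free pair. For both, the [Glc 15 mM/Pyr (+)] array was the lowest of the 4 and the pyruvate-free difference was small, −0.14 for Pde5a and −0.12 for Dirc2. Another Pde5a probe was not well above background and gave no check. In bulk RNA, a lower level in every cell and fewer cells with the RNA cannot be told apart.

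Of the other 10 lower genes, Fos is described with the immediate-early genes. Gm12576 held the adenine-cytosine repeat and went from 915 to 529 with pyruvate and from 804 to 514 without. Gm17753 went from 1969 to 1170 and from 1726 to 1049. The remaining 7 had signals under 500 on both arrays. They were the matrix proteoglycan versican (Vcan, 299 to 167), the chromatin remodeller Srcap (215 to 125), Vstm2a (210 to 107), Tldc2 (250 to 130), 1700064E03Rik (366 to 204) and the odorant receptor genes Olfr1419 (324 to 179) and Olfr1243 (264 to 151). Srcap was at −0.61, but at −0.12 where the bright limit was 100 or 500 or had to be passed on both arrays. Vcan was at −0.68, but at −0.43 where the limit was 500 or had to be passed on both arrays. After normexp background correction the lower genes still past 1.5-fold were 4930584F24Rik (−1.21), Pde5a (−0.96) and Dirc2 (−0.78), and Fos was at −0.52. The 2 odorant receptor genes and Gm17753 were the only genes of the 22 that also passed 1.5-fold in the same direction in the pyruvate-free pair. Across the 13 lower genes, [Glc 5 mM/Pyr (+)] had the highest level of the 4 arrays for 11, all except Fos and Vstm2a. Among the 9 higher genes, [Glc 15 mM/Pyr (+)] had the highest level for 8, all except Crygs. Both sets were picked by a difference between these 2 arrays, which favours such counts. The counts therefore do not show that either array stood apart. With arrays scaled to the spike-in probes, which moved the median of all bright genes by −0.35, none of the 9 higher genes stayed past 1.5-fold.

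**Figure D2:**
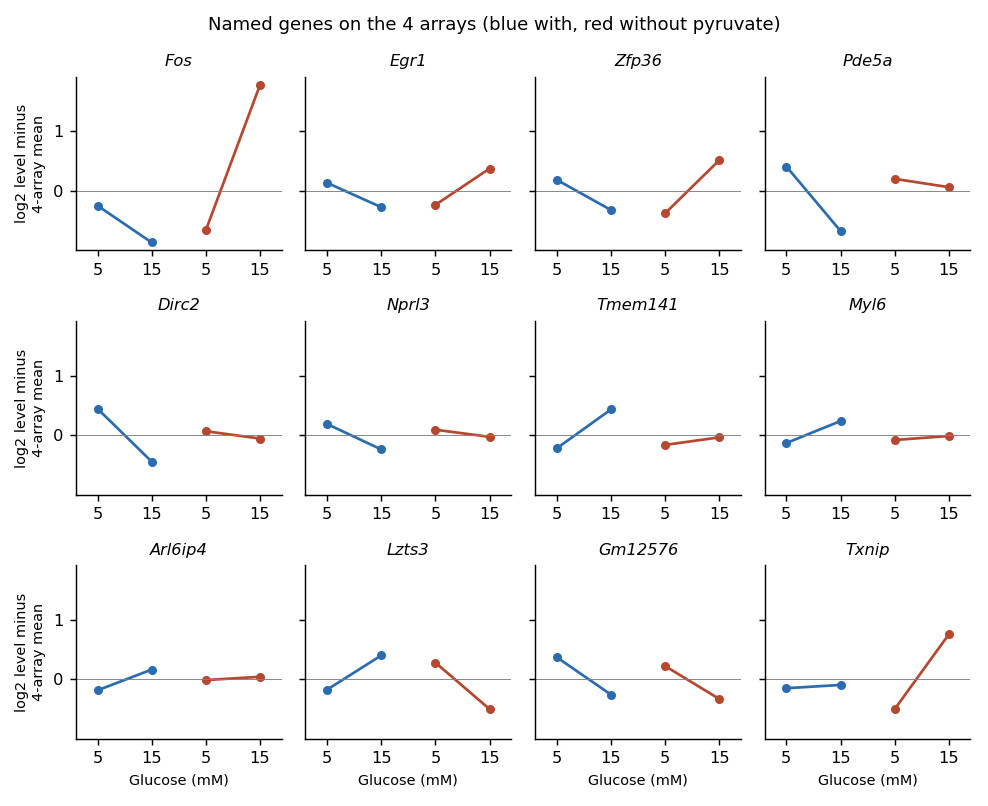
Level of 12 named genes on the 4 arrays (vertical axis, log2 level minus the mean of the 4 arrays; horizontal axis, glucose in mM), with the pyruvate-supplied pair in blue and the pyruvate-free pair in red, 1 array a point. Pde5a, Dirc2 and Tmem141 moved in the blue pair and little in the red pair, while Fos, Egr1, Zfp36 and Lzts3 moved in opposite directions in the 2 pairs.

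The share of the 22 genes past 1.5-fold the same way without pyruvate was 3 of 22, or 13.6% (exact 95% interval from 2.91% to 34.9%, which covers counting error only). This interval takes the genes as independent. They were read on the same arrays and are not, so it does not measure how the share would vary between cultures. Of all bright genes, 0.665% were higher and 1.5% lower past 1.5-fold in the pyruvate-free pair. By direction, 0 of the 9 higher genes and 3 of the 13 lower genes did so. Past 1.5-fold the opposite way without pyruvate were 3 of the 9 higher genes, Cd300lf, Syn3 and Gbp6, and 1 of the 13 lower genes, Fos. At the smaller limit, 19 of the 73 higher genes (26.0%) passed it the same way without pyruvate, against 3.85% of all bright genes, and 72 of the 220 lower genes (32.7%), against 5.92%. The opposite way went 15 of the 73 higher genes, against 5.92% of all bright genes, and 10 of the 220 lower genes, against 3.85%. Past this limit the higher genes thus moved in both directions without pyruvate, in similar numbers. By sign alone, 49 of the 73 (67.1%) went the same way, against 58.5% of all bright genes.

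Simple repeats were common among the probes that moved. An unbroken run of at least 10 bases of a 2-base or 3-base unit was present in 545 of 17593 bright probes (3.10%) and in 811 of all 39429 probes (2.06%). Of the bright probes with such a run, 104 (19.1%) were past the smaller limit, against 3.14% of all bright probes. The direction went with the unit. The 59 adenine-cytosine probes had a median difference of −0.44, with 53 lower and 6 higher, and 42 of them were lower past the smaller limit. The 31 adenine-guanine probes had a median of 0.34, with 29 higher, and the 100 adenine-adenine-guanine probes had a median of 0.24, with 86 higher. The 139 guanine-thymine probes, bright ones with a median signal of 10136 at 5 mM glucose, had a median of 0.17 with 124 higher, and the 25 cytosine-thymine probes a median of −0.22 with 21 lower. The 17048 bright probes without a repeat had a median of 0.01.

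Not all of these units kept their direction across the 2 glucose pairs. Without pyruvate the adenine-cytosine probes were again lower at 15 mM glucose, with a median of −0.46. The adenine-guanine and adenine-adenine-guanine probes turned, with medians of −0.62 and −0.45, and the cytosine-thymine probes turned the other way, with a median of 0.14. The guanine-thymine probes had a median of 0.04. Lzts3, whose protein is known from synapses, shows the adenine-guanine pattern at high signal, with 10011, 13316, 13326 and 7279. Cd300lf, an inhibitory receptor of myeloid cells, had 1675, 2438, 2495 and 1316, and Syn3, a synaptic vesicle protein, had 247, 361, 346 and 179. Tacr2, a tachykinin receptor, shows the adenine-cytosine pattern, with 8547, 5299, 7848 and 5002. In Lzts3, Cd300lf and Syn3, the arrays of 15 mM glucose with pyruvate and 5 mM without both read above the other two. Whether the signals came from the named transcripts or from other RNAs with the same repeat was not tested.

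**Figure D3:**
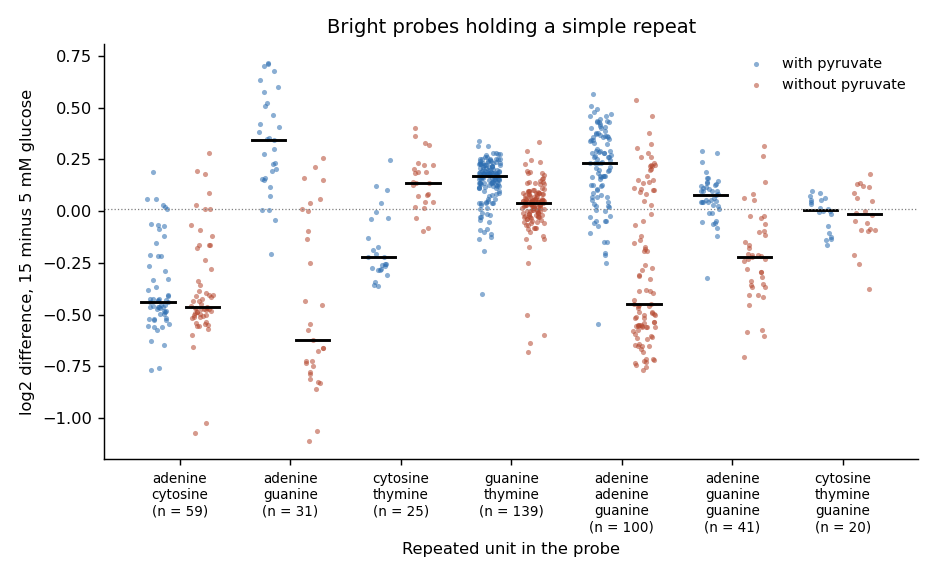
Differences between 15 and 5 mM glucose (vertical axis, log2) of bright probes with a simple repeat, by repeated unit (horizontal axis, number of probes in brackets), with pyruvate in blue and without in red, 1 point a probe, black bars at the medians and a dotted line at the median of the probes without a repeat. The adenine-cytosine probes were lower in both pairs, and the adenine-guanine and adenine-adenine-guanine probes were higher with pyruvate and lower without.

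Base composition went with the difference also in the 17048 bright probes without a repeat. Probes with 0 to 8 cytosines among their 60 bases had a median difference of 0.04, those with 13 to 16 a median of 0.00 and those with 21 or more (403 probes) a median of −0.13. Lower past the smaller limit were 0.605% of the first group, 5.41% of the probes with 17 to 20 cytosines and 9.18% of the last group. Without pyruvate the corresponding medians were 0.03, 0.05 and 0.06. Across these probes the correlation of the difference with the cytosine count was −0.25 with pyruvate and 0.03 without, a description across probes of the same arrays, which are not independent. Leaving out the repeat probes left 17 genes past 1.5-fold, 5 higher and 12 lower. Among these 12, the probes of Olfr1419 (21 cytosines), Tldc2 (20), Vcan and 4930584F24Rik (17 each) were rich in cytosine. The others had from 8 (Vstm2a) to 15 (Dirc2). The part of base composition in the differences of single genes was not tested.

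The immediate-early genes leaned lower at 15 mM glucose. Of the 24 genes of this list 21 were bright, 15 of them lay below the median of all bright genes, and the list median was 0.11 below it. Past the smaller limit, 5 were lower (23.8%, against 1.92% of all bright genes) and none was higher. Fos, a subunit of the AP-1 transcription factor, had signals of 1071, 623, 783 and 3985. It was thus lowest of all at 15 mM glucose with pyruvate and highest at 15 mM glucose without it, and its differences were −0.62 (1.53-fold) and 2.44. The Fos probe (chr12:86817900-86817959) was printed 10 times, and its spots had an SD of 0.0507 over 9 spots and 0.0732 over 10 spots on the pyruvate-supplied arrays, so that the difference carries a spot error of 0.029 (SE, within arrays). This error does not include the spread between cultures.

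Zfp36, whose protein promotes decay of short-lived mRNAs, had signals of 242, 152, 159 and 278, a difference of −0.51 with pyruvate and 0.89 without. Egr1, a zinc finger factor, was much brighter, with 32468, 21853, 24462 and 35014, and differed by −0.41 and 0.61. Arc, an activity-regulated gene best known in neurons, differed by −0.33 with pyruvate and 0.96 without. All 4 of these genes were lower with pyruvate and higher without at 15 mM glucose. Fosb, another AP-1 subunit, went from 3514 to 2482 (−0.34) with pyruvate and stayed at 0.01 without. Junb (−0.30), Nr4a1 (−0.27), Myc (−0.26) and Egr2 (−0.24) were also below 0 with pyruvate, while Jun, the main partner of Fos, was at 0.15 and Ier5 at 0.15. Without pyruvate the list median lay 0.41 above that of all bright genes, and 9 of the 21 were higher past 1.5-fold, against 0.665% of all bright genes. None of the 21 genes had a repeat probe, and the median cytosine count of their probes was 13.

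The MAP kinase feedback genes, phosphatases and inhibitors that ERK signalling induces, had the lowest median of all the lists, 0.14 below that of all bright genes. Of 14 bright members 11 lay below it, although none reached the smaller limit. Errfi1, an inhibitor of the epidermal growth factor receptor, had the largest difference, from 47078 to 35974 (−0.23). Its pyruvate-free signals were 33849 and 30860 (−0.04), both at a lower level than either array with pyruvate. The ERK phosphatases Dusp6 (40681 to 33137, −0.13) and Dusp4 (4378 to 3499, −0.16) and the Ras inhibitors Spred1 (−0.13) and Spred2 (−0.14) were close together, and Rgs2 was highest at 0.09. In the Krüppel-like factors, zinc finger factors of which several are induced by serum, 10 of 11 bright genes lay below the median of all bright genes and the list median was 0.09 below it. Klf12 was lowest (313 to 215, −0.38), Klf10 was at −0.21 and Klf3 highest at 0.01. This list was also lower without pyruvate, with a median 0.14 below that of all bright genes and 3 of 11 genes above it. With pyruvate, 8 of 17 YAP and SRF targets lay above the median of all bright genes and the list median was at 0.00 relative to it. The matricellular gene Cyr61, itself rapidly induced by serum, however went from 44009 to 31997 (−0.30). Its pyruvate-free signals were 29946 and 23717 (−0.24), again both at a lower level than either array with pyruvate.

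**Figure D4:**
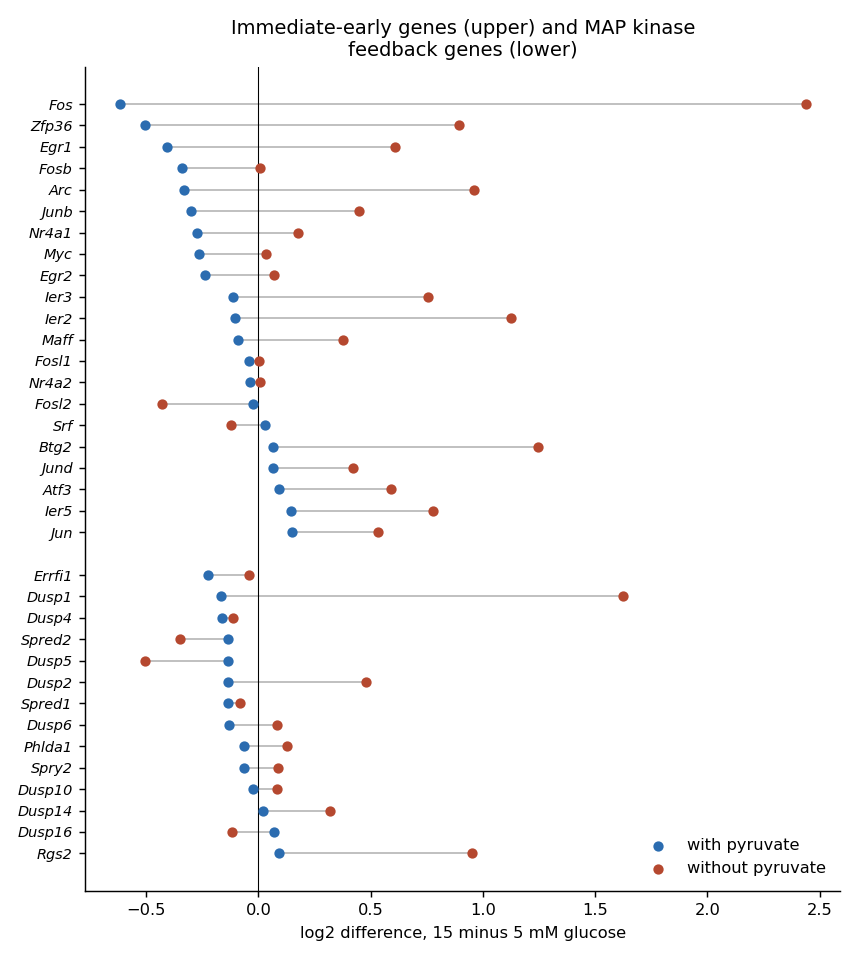
Difference between 15 and 5 mM glucose (horizontal axis, log2) of the 21 bright immediate-early genes and the 14 bright MAP kinase feedback genes (rows), with pyruvate in blue and without in red, 1 array pair a point. With pyruvate the points run from −0.62 for Fos to 0.15 for Jun, and Fos lies at 2.44 without pyruvate.

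Other probes printed 10 times gave the differences with the smallest spot error. Of 208 such bright probes, 120 differed by more than 2 spot SEs, while 2 passed the smaller limit. These 2 were Fos and Prkag1, a regulatory subunit of the energy sensor AMP kinase, whose signals were 4496, 5473, 4533 and 4349. Its difference was 0.45 with a spot SE of 0.028, against 0.03 without pyruvate. Ptgs2, the inducible cyclooxygenase, went from 1130 to 820 (−0.30, spot SE 0.012), with a pyruvate-free difference of 0.05. Edn1, the vasoconstrictor peptide endothelin-1, went from 640 to 468 (−0.29, spot SE 0.034) and had a pyruvate-free difference of −0.02. The SD of the difference over the 208 probes was 0.11, against a median spot SE of 0.029.

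Genes with several bright probes can be compared between probes, since 2 probes of a gene are read from different spots of the same RNA. Of 2807 such genes, 17 had a mean past the smaller limit, and in 14 of these the probes agreed in direction. All probes were past the smaller limit in 1 direction for 5 genes. These 5 were picked for that agreement, which is therefore not a check on them. Myl6, a myosin light chain, was highest in signal, at 105057 and 121209 with pyruvate and 107512 and 105666 without, and both of its probes read 0.37, although they map to 2 chromosomes. Arl6ip4 went from 17506 to 20130 (probes at 0.33 and 0.37), and Sostdc1, a secreted BMP and Wnt antagonist, from 211 to 274 (0.52 and 0.56). Nprl3, a subunit of the GATOR1 complex that restrains mTORC1, went from 2517 to 1679 (−0.45 and −0.41), and Tinagl1, a matrix protein, from 542 to 372 (−0.44 and −0.35). Both Nprl3 probes were rich in cytosine, with 17 and 18, and the Tinagl1 probes had 18 and 14. Those of Myl6, Arl6ip4 and Sostdc1 had from 10 to 16. In the pyruvate-free pair these 5 genes differed by 0.07, 0.05, 0.28, −0.12 and 0.03 in that order, so 4 of them stayed near 0 there.

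The genes that handle glucose itself read close to the bright genes as a whole. The smaller limit was passed by 2.56% of all bright genes, so a list of this size with no gene past it is near the background. Of 18 bright glycolysis genes none passed it, the list median was 0.05 above that of all bright genes and the values ran from −0.16 for Eno2, on a probe with a repeat, to 0.15 for Aldoc. The hexokinases Hk1 (44932 to 40099, −0.01) and Hk2 (2081 to 1814, −0.04) and the pyruvate kinase Pkm (97408 to 92958, 0.10) had flat levels. The signals of Hk1 and of Pkm are means over probes that map to 2 chromosomes for each gene. Gapdh read 0.06 as the mean of 9 probes on 7 chromosomes, which ranged from −0.10 to 0.20. For comparison Actb, a housekeeping gene, was at 0.03. Of 15 bright genes for pyruvate enzymes and carriers none passed the smaller limit, and pyruvate carboxylase (Pcx, 3025 to 3131, 0.21) had the largest difference. Pdp2, a phosphatase that activates pyruvate dehydrogenase, was lowest at −0.17. In the TCA cycle list the largest was Mdh2 at 0.16.

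Txnip, a glucose-induced arrestin that the factor MondoA drives, had signals of 1126, 1028, 841 and 1990. Its 2 probes differed by 0.02 and 0.09 with pyruvate, against a mean of 1.26 without, so the high array was that of [Glc 15 mM/Pyr (−)] alone. Arrdc4, its paralog, was at 0.07 and 0.26. Mlxipl, which encodes the glucose-sensing factor ChREBP, was the lowest of the 14 bright genes for glucose entry and MondoA targets, from 7803 to 5222 (−0.42), and was lower without pyruvate as well, from 6993 to 4448 (−0.56). In the collateral pathways, which draw glucose into polyols, hexosamines and pentoses, none of 18 bright genes passed the smaller limit. Aldose reductase (Akr1b3) was at 0.08, the O-GlcNAc transferase Ogt lowest at −0.13 and transaldolase (Taldo1) highest at 0.16. Parp1, the DNA damage sensor, was at −0.02.

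**Figure D5:**
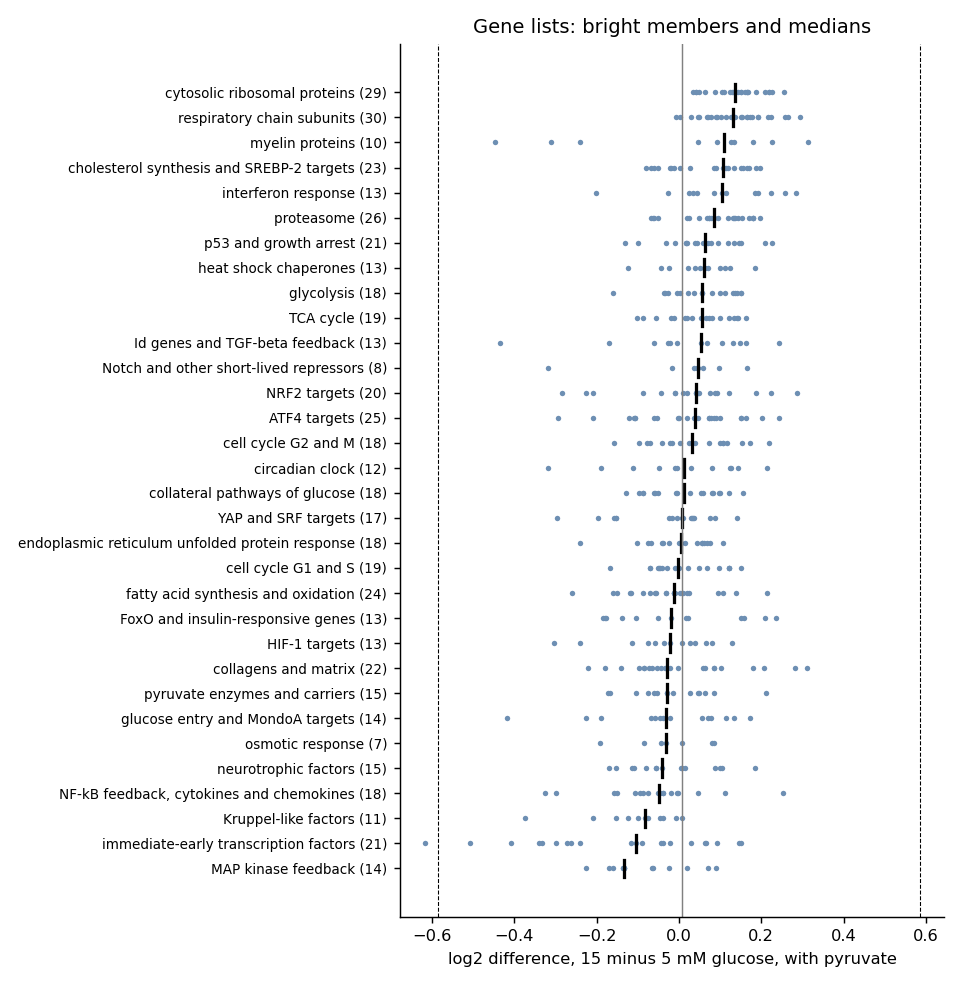
Difference between 15 and 5 mM glucose with pyruvate (horizontal axis, log2) of the bright members of 32 gene lists (rows, number of bright genes in brackets), 1 point a gene, with black bars at list medians, a grey line at the median of all bright genes and dashed lines at 1.5-fold. The medians run from −0.13 for MAP kinase feedback to 0.14 for cytosolic ribosomal proteins, and Fos is the member past the dashed lines.

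Over all 32 lists, 1 of 543 bright genes passed 1.5-fold, Fos (0.184%, against 0.192% of all bright genes). Past the smaller limit, 10 were lower and 0 higher (1.84%, against 2.56% of all bright genes), so the lists as a whole were near the background. Beside the 5 immediate-early genes, Mlxipl and Klf12, these were Gjb1, the gap junction protein of myelinating Schwann cells (481 to 315, −0.45), Ski, a repressor of TGF-beta signalling (264 to 174, −0.43), and Nfkbiz, an inducible regulator of NF-kB (280 to 199, −0.33). Apart from Mlxipl, Egr1, Fosb and Fos, the 6 others had signals under 500. The list medians lay within 0.1 of the median of all bright genes for 26 of the 32 lists. The 2 below were the immediate-early and MAP kinase feedback genes, and the 4 above were the cytosolic ribosomal proteins (0.13), respiratory chain subunits (0.13), myelin proteins (0.10) and cholesterol synthesis genes (0.10). All 29 bright ribosomal protein genes, from Rps9 (0.03) to Rps20 (163297 to 174270, 0.26), lay above the median of all bright genes, as did 28 of 30 respiratory chain genes, up to Uqcrc1 (0.29). Both lists were also raised in the pyruvate-free pair. The respiratory chain median was 0.16 there, with 28 of 30 genes above, and the ribosomal median 0.09, with 23 of 29 above. In that pair the myelin median was −0.12 and the cholesterol median 0.04. The ribosomal and respiratory chain genes are among the brightest. With pyruvate, under quantile normalization and cyclic loess, which remove a trend with signal, the ribosomal median was 0.026 and 0.027. The respiratory chain median was 0.039 and 0.051 under these, and the myelin, cholesterol and immediate-early medians also came within 0.1 of all bright genes, while that of MAP kinase feedback stayed below (−0.12 and −0.11). The myelin median was 0.036 at a bright limit of 100, and the immediate-early median −0.058 at a limit of 500. The myelin list was split, with Cnp at 0.31 above, and Gjb1, Drp2 (−0.31) and Egr2 below.

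The stress lists had no member past the smaller limit, which 2.56% of all bright genes passed, so that few would be past it at the background share. Relative to all bright genes, the median was 0.03 for the 25 bright ATF4 targets, 0.03 for the 20 NRF2 targets, 0.05 for the 13 heat shock chaperones, 0.06 for the 21 p53 targets, −0.03 for the 13 HIF-1 targets and 0.00 for the 18 genes of the unfolded protein response. Among the ATF4 targets, the proline synthesis enzyme Aldh18a1 was lowest (1035 to 754, −0.30) and the mTORC1 inhibitor Ddit4 highest at 0.24. Srxn1, the sulfiredoxin that NRF2 induces, was at 0.29 and catalase (Cat), with a repeat in 1 of its 2 probes, at −0.28. Hspa8 was at 0.19 over 3 probes that all map to chromosome 5, Bax at 0.23, Ero1l at −0.30 and Edem1 at −0.24. The medians of the lists for lipids, growth and defence were −0.02 for fatty acid metabolism, with Ppara at −0.26, −0.03 for FoxO and insulin-responsive genes, with Pik3ip1 at 0.24, 0.10 for the interferon response, with Oasl2 at 0.28, −0.06 for NF-kB feedback and cytokines, and 0.08 for the proteasome, with Psmb1 at 0.20.

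Among the remaining lists, the median relative to all bright genes was −0.01 for G1 and S genes (Tyms lowest, −0.17), 0.02 for G2 and M genes (Cenpa highest, 0.22), 0.01 for the circadian clock and 0.04 for the short-lived repressors. Bhlhe40, a repressor in both of the last lists, went from 2742 to 1965 (−0.32) and was at −0.24 without pyruvate. The median was 0.05 for the Id and TGF-beta feedback genes, −0.05 for neurotrophic factors (Artn highest, 0.18), −0.04 for collagens and matrix (Col6a3 highest, 0.31) and −0.04 for the osmotic response genes. Sgk1, a kinase induced by osmotic stress and serum, was the lowest of the latter, from 13412 to 10496 (−0.19), and was at 0.37 without pyruvate. Ebp was the highest of the cholesterol synthesis genes at 0.20.

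Most of the larger differences were at low signal. Over all 17093 measured genes, 65 were higher (0.38%) and 77 lower (0.45%) past 2-fold, and all but 2 of these, 4930584F24Rik and Pde5a, were dim. The SD of the difference over probes was 0.37 in the dimmest 9405 measured probes, 0.16 in the middle 9405 and 0.12 in the brightest 9405. Probes with a signal from 200 to 220 had an SD of 0.21, and those from 180 to 200 had 0.22, so the spread did not step at the limit. The dim gene furthest up was Mup3, a major urinary protein, with 10.4 and 86.8 with pyruvate and 2.35 and 3.68 without, followed by 6330564D18Rik, Prss45, Ampd1 and Gm39644 with differences from 2.06 to 2.52. The 5 furthest down were Jup, 4930539E08Rik, 2010109A12Rik, Aim1l and Olfr877. Jup, plakoglobin of cell junctions, had signals of 87.6, 14.6, 14.4 and 12.5, and for all 5 the [Glc 5 mM/Pyr (+)] array was the highest of the 4. The 5 were picked for a high level on that array relative to 15 mM glucose with pyruvate, which favours this. Each of these 10 genes rested on 1 probe. A further 1560 probes with a gene symbol were well above background only at 5 mM and 174 only at 15 mM glucose with pyruvate, and none of these had a signal over 200.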

How the data were processed

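RNA of IMS32 cells was labelled with Cy3 and hybridized to 1 Agilent whole mouse genome array per condition. The authors deposited the scanner output of Agilent Feature Extraction 11.5.1.1. Its processed column holds background-corrected spot intensity, not scaled between arrays. The authors also deposited a table that holds the same intensity as a ratio to 1 constant per array; all 44397 features matched within 1e-06. Column medians of that ratio were 0.0566 and 0.0535 for the pyruvate-supplied arrays, on a linear scale.

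Control and outlier spots were left out, spots of a probe were averaged, and the log2 of each array's 75th percentile over 39429 probes was subtracted from log2 intensity. A gene was the mean of its bright probes (signal over 200 on either array, well above background on both) or, with none, of its measured probes. Fold limits were 1.5 for bright and 2 for all genes. Names are those of the array, of which 22043 of 23087 matched RefSeq (GRCm38.p6), and older list symbols were matched through its synonyms.

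The members and gene lists were chosen with earlier results of these data known. Genes were named by rule as the 12 highest and 12 lowest bright genes whose probes agreed in direction, the largest of each list, list members past 1.5-fold, a set of glucose genes, Schwann cell markers and the 5 highest and lowest dim genes. All others, such as Anp32a, Gm17753, Prkag1, the genes of several probes and the repeat probes, were chosen after their values were seen. Of the 24 names, 4931406E20Rik (0.54) and Zfp248 (0.57), both among the highest, appear here only. In simulated arrays with 200 genes changed 2-fold, 200 were recovered, with 0 of the other genes past 1.5-fold among 11425. The changed genes were well over the bright limit, and the simulated noise had a log2 SD of 0.1 at all signals. Probes with a signal from 200 to 220 had an SD of 0.21. The simulation therefore checks the processing steps and does not show how many of the 22 genes noise could give. Python 3.11.15, numpy 2.4.6, pandas 2.3.3, scipy 1.17.1 and limma 3.58.1 under R 4.3.3 were used. Alternatives were other scalings, limits, filters and background corrections, and leaving out repeat probes, the last chosen after seeing the data. No test was made, and the number of arrays limits the precision.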

Additional observations from a re-analysis of the deposited data

Results flagged for a closer look

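Of the 22 bright genes past 1.5-fold, 4 moved past that limit in opposite directions in the 2 glucose pairs, and this difference between the pairs was not tested, since each pair is 2 arrays. Fos was lower at 15 mM glucose with pyruvate (−0.62) and higher without (2.44). Cd300lf (0.70 with and −0.83 without pyruvate), Syn3 (0.71 and −0.86) and Gbp6 (0.60 and −0.73) went the other way, and all 3 have a probe with the adenine-guanine repeat.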

How the results depend on the processing

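The 22 bright genes past 1.5-fold (9 higher, 13 lower) became 535 (0 higher, 535 lower) when arrays were scaled to 8 of the 10 spike-in probes, which moved the median of all bright genes by −0.35, so directions hold relative to the bulk of genes. The count was 10 (3 lower) after normexp background correction, 81 (26 higher, 55 lower) at a bright limit of 100, 12 (5 lower) at 500 and 14 (6 lower) where both arrays had to exceed 200. It was 2 (0 higher, 2 lower) at a 2-fold limit and 293 (73 higher, 220 lower) at a log2 limit of 0.32, and 5 genes were higher without repeat probes. The 142 of all measured genes past 2-fold (65 higher, 77 lower) became 271 (36 higher, 235 lower) with spike-in scaling, 4 (2 higher, 2 lower) with normexp, 485 (179 higher, 306 lower) at 1.5-fold and 839 (292 higher, 547 lower) with no filter on dim probes. The share past the limit the same way without pyruvate was 0% with normexp and at 2-fold, against 13.6%. In the other settings it ran from 4.35% under cyclic loess to 31.1% at a log2 limit of 0.32. It was 8.33% under quantile normalization and 7.14% where both arrays had to exceed 200. Among the list medians, taken relative to all bright genes, that of the cytosolic ribosomal proteins moved by more than the spot error of a difference (0.0894), to 0.026 under quantile normalization and 0.027 under cyclic loess, and 382 of 384 recomputed list medians moved by less. The medians of the immediate-early genes ranged from −0.11 to −0.06 and of the MAP kinase feedback genes from −0.15 to −0.10. Without their repeat probes Gbp6 read −0.13 and Syn3 −0.067, on dim probes. No cause of these changes was tested beyond what each setting removes. No paired analysis was possible because each group has 1 array and the labels give no replicate numbers.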
